A study of Mus musculus with 18 samples.

Results

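A set of 10 genes that restrain the cell cycle or respond to the tumour suppressor p53 were followed through the conversion of fibroblasts into cardiomyocyte-like cells. They were taken from a list, and it and the further gene lists were chosen with earlier results of these data known. Counts of genes called are therefore descriptive. The list held 4 inhibitors of cyclin-dependent kinases (CDKs), namely Cdkn2a, Cdkn2b, Cdkn2c and Cdkn1b. It also held 6 p53 targets (Trp53inp1, Mdm2, Ccng1, Gadd45a, Sesn1 and Sesn2). All 10 were measured, out of 19912 genes with a probe set of their own. Each gene was read from 1 probe set, the one with the highest mean over the 18 Affymetrix mouse Gene 1.0 ST arrays.

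The arrays held 6 groups of 3, all of them cells of CD1 mice. Cells in the course of reprogramming were sorted by green fluorescent protein (GFP): GFP+ induced cardiomyocyte-like cells (iCMs) at 4 and at 2 weeks, and GFP- cells, in which reprogramming had failed, at 4 and at 2 weeks. The other groups were neonatal cardiomyocytes (CM) and neonatal cardiac fibroblasts (CF), neither of which was reprogrammed. The labels name neither the reprogramming factors nor the promoter that drives GFP, and do not say whether the arrays of a group came from separate cultures, although the design text calls them biological replicates. The p-values therefore measure the spread between these arrays, and with 3 arrays a group that number limits the precision.

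CDK inhibitors stop cells from entering or passing through the division cycle. Cdkn2b and Cdkn2c encode p15 and p18, which bind the kinases CDK4 and CDK6 and keep the retinoblastoma protein active. The Cdkn2a locus encodes both a protein of that family and Arf, which holds back Mdm2 and so raises p53. Cdkn1b encodes p27, an inhibitor of CDK2 complexes in resting cells. p53 is a transcription factor switched on by DNA damage and other stress. Its targets slow the cycle, repair DNA, trigger cell death or, as Mdm2 does, return p53 to a low level. Cardiomyocytes largely leave the cell cycle around birth, whereas fibroblasts divide readily in culture.

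The sequence just upstream of the start of transcription was examined for the p53 half-site RRRCWWGYYY. In it R is A or G, W is A or T and Y is C or T. A full p53 site was not searched for, nor was sequence beyond the windows given here. Members that held the half-site differed in opposite directions in the results that follow. RefSeq windows (build GRCm38.p6, 250 bases before each listed start) were available for 9 of the 10 members, in 12 windows, all but Trp53inp1. The p53 half-site, searched on both strands, was found in 4 of the 12 windows, against 7.13% of 32851 windows of the same length over all genes. They belong to Mdm2 and Ccng1, which were higher in iCMs than in GFP- cells, and to Gadd45a and Sesn1, which were lower. The E2F site was searched as TTTCCCGC, TTTCGCGC, TTTGCCGC or TTTGGCGC on both strands. It occurred in 1 window, upstream of Cdkn2a, against 1.86% of all windows, and is shown because E2F factors are the ones that the retinoblastoma protein restrains. The cyclic AMP response element TGACGTCA was found 46 bases before the start of Cdkn2b, the only member window that held it, against 1.55% of all windows. No match overlapped another. The stretches follow 5′ to 3′ on the gene's strand, with the match in capitals. That of Ccng1 stops 23 bases short of the start, where the annotated gene begins.
Mdm2 (chr10:117710759-117711008, minus strand; half-site 186 bases before the start): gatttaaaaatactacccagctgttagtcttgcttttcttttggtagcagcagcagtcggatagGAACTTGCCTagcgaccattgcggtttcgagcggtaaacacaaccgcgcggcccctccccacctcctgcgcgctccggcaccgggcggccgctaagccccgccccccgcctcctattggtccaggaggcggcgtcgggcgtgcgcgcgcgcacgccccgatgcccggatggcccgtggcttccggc
Ccng1 (chr11:40755310-40755536, minus strand; half-site 185 bases before the start): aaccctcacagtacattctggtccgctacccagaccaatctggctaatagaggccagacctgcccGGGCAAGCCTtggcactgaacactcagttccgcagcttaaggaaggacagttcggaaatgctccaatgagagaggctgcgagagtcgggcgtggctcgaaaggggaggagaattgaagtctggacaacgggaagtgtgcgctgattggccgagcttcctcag
Gadd45a (chr6:67037408-67037657, minus strand; half-site 40 bases before the start): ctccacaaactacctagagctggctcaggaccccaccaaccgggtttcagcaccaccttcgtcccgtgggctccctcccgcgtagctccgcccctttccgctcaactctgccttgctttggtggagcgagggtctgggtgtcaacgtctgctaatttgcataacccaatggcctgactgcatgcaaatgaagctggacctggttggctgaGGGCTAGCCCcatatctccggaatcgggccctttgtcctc
Sesn1 (chr10:41887189-41887438, plus strand, the downstream of 2 listed starts; half-site 173 bases before it): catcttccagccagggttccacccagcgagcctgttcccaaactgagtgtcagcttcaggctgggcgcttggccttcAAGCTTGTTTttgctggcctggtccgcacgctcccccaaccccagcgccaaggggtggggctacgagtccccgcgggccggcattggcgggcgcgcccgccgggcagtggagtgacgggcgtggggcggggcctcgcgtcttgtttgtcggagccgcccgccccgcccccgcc
Cdkn2a (chr4:89294620-89294869, minus strand, the upstream of 2 listed starts; E2F site 99 bases before it): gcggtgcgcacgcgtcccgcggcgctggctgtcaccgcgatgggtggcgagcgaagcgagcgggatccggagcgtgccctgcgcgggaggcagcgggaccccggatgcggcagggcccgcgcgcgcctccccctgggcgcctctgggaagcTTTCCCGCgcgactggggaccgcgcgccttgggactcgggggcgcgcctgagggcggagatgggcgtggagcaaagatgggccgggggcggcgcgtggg
These letters are a description of the windows, and binding of any factor was not measured.

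The deposited values are log2 intensities, with array medians from 7.32 to 7.44 (log2) and correlations within a group from 0.990 to 0.996. Every group mean of every member lay above the highest 25th percentile of any array (6.35 on the log2 scale), the lowest being Cdkn2c in 4-week iCMs at 6.72. The labels were set against marker lists, given as the range of the list's mean log2 intensity over the arrays of a group. The 10 cardiomyocyte markers ranged from 11.49 to 11.66 in 4-week iCMs, 10.65 to 11.15 in 2-week iCMs, 8.14 to 8.24 in 4-week GFP- cells, 8.0028 to 8.43 in 2-week GFP- cells, 13.10 to 13.13 in CM and 7.42 to 7.50 in CF. The 11 fibroblast markers were highest in CF, at 10.68 to 11.04, while every other group lay between 8.20 and 10.02. The 15 macrophage and leukocyte markers ranged from 9.21 to 9.96 in iCMs of either time, 11.98 to 12.13 in GFP- cells of either time, 6.59 to 6.83 in CM, where 4 of the 15 lay under that percentile, and 11.75 to 11.97 in CF, so the cells labelled as fibroblasts and the GFP- cells carried strong leukocyte signal. The 7 mesothelial and epicardial markers ranged from 9.09 to 9.67 in iCMs and from 7.49 to 8.55 in the other groups. In such bulk samples fewer cells of a type and less RNA per cell cannot be told apart.

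The 4 p53 targets Trp53inp1, Mdm2, Ccng1 and Sesn2 were higher in iCMs than in GFP- cells of the same age, and than in CM and in CF, at both times. The CDK inhibitors Cdkn2c and Cdkn1b and the p53 target Sesn1 were lower in iCMs than in all of these. Cdkn2b was higher in iCMs than in GFP- cells at both times, and Gadd45a was lower. The direction of the difference thus divided the p53 targets 4 to 2. The 2-week calls of Sesn2 and Gadd45a against GFP- cells, and the 4-week call of Sesn2 against CF, were lost on leaving out some single arrays. Every level is a log2 intensity and every difference a log2 difference with its standard error (SE). Levels are compared between groups for 1 gene and never between genes.

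**Figure D1:**
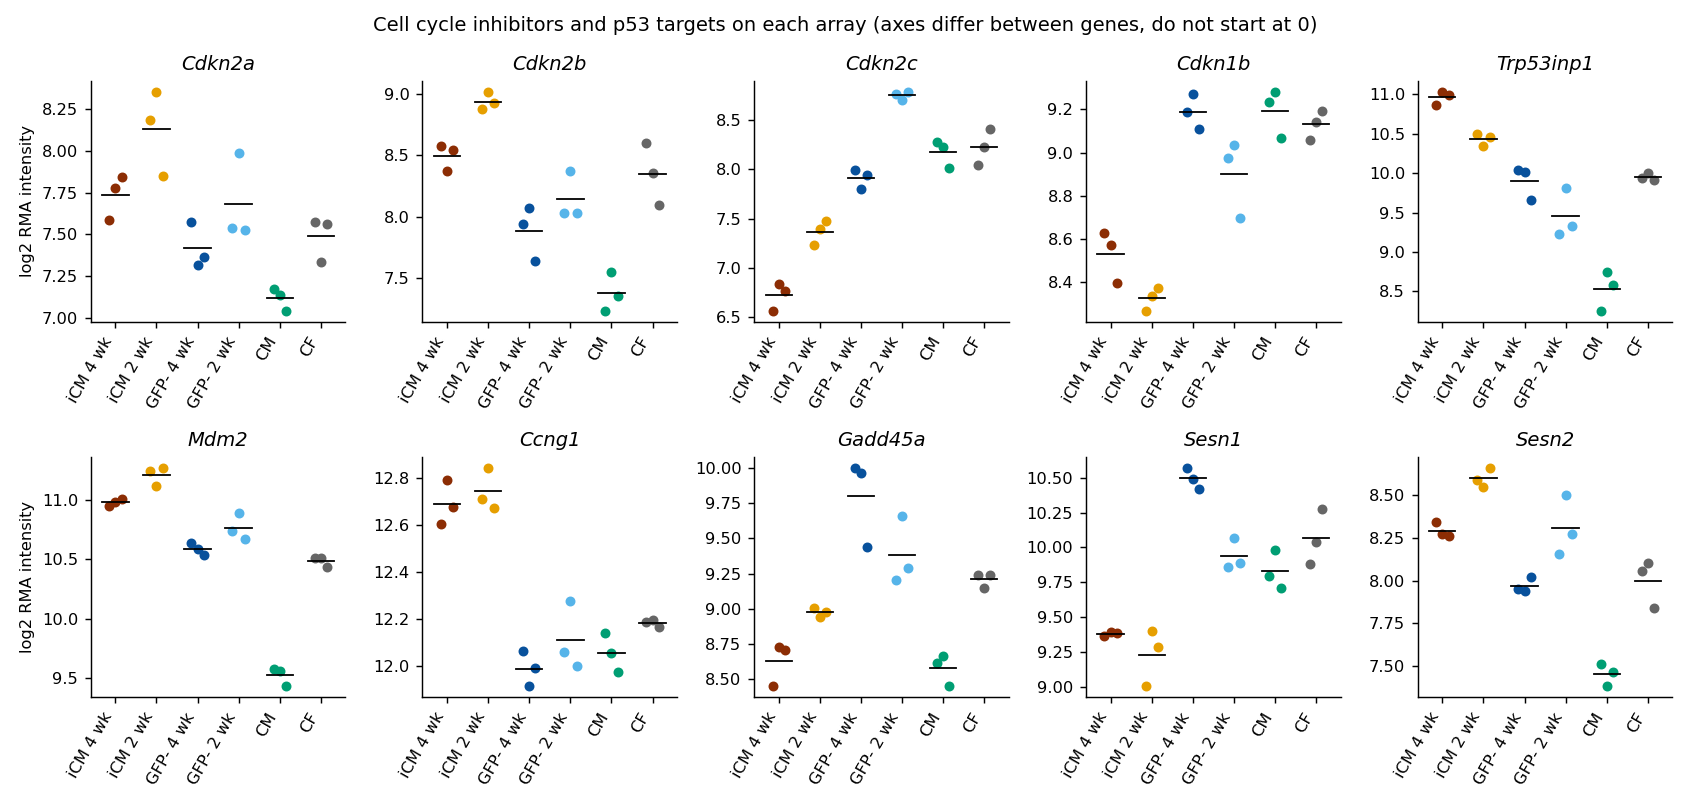
Log2 RMA intensity (vertical axes, which differ between genes and do not start at 0) of the 10 genes on each of 18 arrays; points are arrays, bars are group means (n = 3), and groups run from 4-week iCMs to CF. Trp53inp1, Mdm2 and Ccng1 are highest in the 6 iCM arrays, and Cdkn2c, Cdkn1b and Sesn1 are lowest there.

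Trp53inp1 encodes a stress-induced protein that promotes p53-dependent growth arrest and cell death, and it had the widest span of group means among the members, 2.44 (log2). Its log2 intensities were 10.87, 11.03 and 10.99 in 4-week iCMs, 10.496, 10.35 and 10.46 in 2-week iCMs, 10.05, 10.01 and 9.66 in 4-week GFP- cells, 9.24, 9.82 and 9.34 in 2-week GFP- cells, 8.26, 8.75 and 8.58 in CM and 9.94, 10.001 and 9.91 in CF. The 4-week iCMs stood above the 2-week iCMs and both above every other array. CM lay below all other groups, whereas CF, 4-week and 2-week GFP- cells came next to each other with overlapping neighbours.

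Mdm2 encodes the ubiquitin ligase that degrades p53 and is itself switched on by it. The arrays read 10.95, 10.98 and 11.01 (log2 intensity) in 4-week iCMs, 11.25, 11.12 and 11.27 in 2-week iCMs, 10.63, 10.59 and 10.54 in 4-week GFP- cells, 10.74, 10.89 and 10.67 in 2-week GFP- cells, 9.58, 9.56 and 9.43 in CM and 10.51, 10.51 and 10.43 in CF. No neighbours in the order of the 6 groups overlapped, from 2-week iCMs at the top through 4-week iCMs, the GFP- cells and CF to CM at the bottom.

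Ccng1 encodes cyclin G1, a p53 target that acts in the feedback on Mdm2. Log2 intensities of 12.61, 12.79 and 12.68 were measured in 4-week iCMs, 12.71, 12.85 and 12.67 in 2-week iCMs, 12.06, 11.91 and 11.99 in 4-week GFP- cells, 12.06, 12.28 and 12.001 in 2-week GFP- cells, 12.14, 12.06 and 11.97 in CM and 12.19, 12.20 and 12.17 in CF. The 6 iCM arrays overlapped each other and stood above the other 12, which lay close together.

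Sesn2 and Sesn1 encode sestrins, stress proteins that restrain mTORC1 signalling and oxidative damage. Sesn2 gave log2 intensities of 8.34, 8.28 and 8.26 in 4-week iCMs, 8.59, 8.55 and 8.66 in 2-week iCMs, 7.95, 7.94 and 8.02 in 4-week GFP- cells, 8.16, 8.50 and 8.27 in 2-week GFP- cells, 7.51, 7.38 and 7.47 in CM and 8.06, 8.10 and 7.84 in CF. The 2-week iCMs were highest, and 4-week iCMs overlapped 2-week GFP- cells. Sesn1 ran the other way, with log2 intensities of 9.37, 9.40 and 9.38 in 4-week iCMs, 9.001, 9.40 and 9.29 in 2-week iCMs, 10.57, 10.49 and 10.42 in 4-week GFP- cells, 9.86, 10.07 and 9.89 in 2-week GFP- cells, 9.79, 9.98 and 9.71 in CM and 9.88, 10.04 and 10.28 in CF. Every iCM array lay below every other array, and 4-week GFP- cells were above all other groups.

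Gadd45a encodes a stress sensor that takes part in DNA repair and growth arrest. Its log2 intensities were 8.45, 8.73 and 8.71 in 4-week iCMs, 9.01, 8.94 and 8.98 in 2-week iCMs, 10.001, 9.97 and 9.44 in 4-week GFP- cells, 9.20, 9.66 and 9.29 in 2-week GFP- cells, 8.62, 8.67 and 8.45 in CM and 9.24, 9.15 and 9.24 in CF. The 4-week iCMs overlapped CM at the low end, and the GFP- groups overlapped each other at the high end.

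Of the CDK inhibitors, Cdkn2c spanned 2.03 (log2) between its lowest and highest group mean. It read 6.56, 6.84 and 6.76 (log2 intensity) in 4-week iCMs, 7.23, 7.398 and 7.48 in 2-week iCMs, 7.99, 7.80 and 7.95 in 4-week GFP- cells, 8.77, 8.70 and 8.79 in 2-week GFP- cells, 8.28, 8.23 and 8.02 in CM and 8.05, 8.23 and 8.41 in CF. CM and CF overlapped, and all other neighbours in the order were apart, with 2-week GFP- cells highest and 4-week iCMs lowest. Cdkn1b moved over a smaller range, with log2 intensities of 8.63, 8.57 and 8.40 in 4-week iCMs, 8.27, 8.33 and 8.37 in 2-week iCMs, 9.19, 9.27 and 9.11 in 4-week GFP- cells, 8.97, 9.03 and 8.70 in 2-week GFP- cells, 9.23, 9.28 and 9.07 in CM and 9.06, 9.14 and 9.19 in CF. The iCM arrays were again below all others. A second Cdkn1b probe set, not used for the tests, had group means of 8.25, 7.85, 9.13, 8.68, 9.29 and 8.75 (log2 intensity) in the same order of groups, also lowest in the iCMs.

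Cdkn2b had log2 intensities of 8.58, 8.37 and 8.54 in 4-week iCMs, 8.87, 9.01 and 8.92 in 2-week iCMs, 7.94, 8.07 and 7.64 in 4-week GFP- cells, 8.03, 8.37 and 8.03 in 2-week GFP- cells, 7.24, 7.55 and 7.35 in CM and 8.60, 8.36 and 8.09 in CF. The 2-week iCMs were above all other arrays and CM below them, while 4-week iCMs, CF and 2-week GFP- cells overlapped their neighbours. Cdkn2a, whose probe set is annotated to the transcripts of both of its proteins and cannot tell them apart, had log2 intensities of 7.59, 7.78 and 7.85 in 4-week iCMs, 8.18, 8.35 and 7.85 in 2-week iCMs, 7.57, 7.32 and 7.36 in 4-week GFP- cells, 7.54, 7.99 and 7.53 in 2-week GFP- cells, 7.17, 7.14 and 7.04 in CM and 7.57, 7.33 and 7.56 in CF. CM was lowest, and the 2-week iCMs had the highest mean but overlapped 2-week GFP- cells.

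Cells that reprogrammed were set against cells of the same culture age that did not. At 4 weeks 5 of the 10 genes were higher in iCMs than in GFP- cells and 4 were lower, against 17.2% and 17.1% of all 19912 genes tested. At 2 weeks 6 were higher and 4 lower, against 16.2% and 18.4% of all genes. The median difference over the 10 members was 0.32 (log2) at 4 weeks and 0.37 at 2 weeks, beside 0.05 and -0.02 over all genes.

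Trp53inp1 exceeded its level in GFP- cells by the most, 1.06 ± 0.14 (log2 difference, SE; 2.08-fold; adjusted p = 4.122e-06) at 4 weeks and 0.97 ± 0.14 (1.96-fold; adjusted p = 1.132e-05) at 2 weeks. Ccng1 was 1.63-fold higher at 4 weeks (difference 0.70 ± 0.09 log2; adjusted p = 1.917e-06) and 1.55-fold at 2 weeks (0.63 ± 0.09 log2; adjusted p = 7.135e-06). The feedback regulator Mdm2 was 1.32-fold higher at 4 weeks (adjusted p = 0.000488) and 1.36-fold at 2 weeks (adjusted p = 0.000134). Sesn2 was 1.25-fold higher in iCMs at 4 weeks (adjusted p = 0.00973) and 1.22-fold at 2 weeks (0.29 ± 0.09 log2; adjusted p = 0.0185). The 2-week Sesn2 call was lost without 2-week iCM replicate 3 (adjusted p = 0.0744), without 2-week GFP- replicate 1 (adjusted p = 0.124) or replicate 3 (adjusted p = 0.0595), and in a fit of these groups alone (adjusted p = 0.0793).

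Of the p53 targets with lower levels in iCMs, Sesn1 was 2.16-fold lower than in GFP- cells at 4 weeks (difference -1.11 ± 0.11 log2; adjusted p = 1.054e-07) and 1.64-fold lower at 2 weeks (-0.71 ± 0.11 log2; adjusted p = 3.441e-05). Gadd45a was 2.26-fold lower at 4 weeks (-1.17 ± 0.13 log2; adjusted p = 6.042e-07) and 1.33-fold lower at 2 weeks (-0.41 ± 0.13 log2; adjusted p = 0.0227). The 2-week Gadd45a call was lost without 2-week iCM replicate 2 (adjusted p = 0.0623) or 3 (adjusted p = 0.0531), or without 2-week GFP- replicate 2 (difference -0.27 log2; adjusted p = 0.147).

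The CDK inhibitors also split. Cdkn2c was 2.28-fold lower in iCMs at 4 weeks (difference -1.19 ± 0.11 log2; adjusted p = 1.727e-08) and 2.61-fold lower at 2 weeks (-1.38 ± 0.11 log2; adjusted p = 2.121e-09). Cdkn1b was 1.58-fold lower at 4 weeks (adjusted p = 1.516e-05) and 1.49-fold lower at 2 weeks (adjusted p = 6.528e-05). Cdkn2b, by contrast, was 1.53-fold higher at 4 weeks (0.61 ± 0.13 log2; adjusted p = 0.00101) and 1.73-fold higher at 2 weeks (0.79 ± 0.13 log2; adjusted p = 6.818e-05). Cdkn2a differed by 0.32 ± 0.13 (log2) at 4 weeks, which did not pass (adjusted p = 0.0749) except in a fit of the 4-week groups alone (adjusted p = 0.0355) or with array weights (0.39 log2; adjusted p = 0.00867). It was 1.36-fold higher at 2 weeks (adjusted p = 0.0126). The 2-week call was lost without 2-week iCM replicate 2 (adjusted p = 0.0858), without 2-week GFP- replicate 1 (adjusted p = 0.0692) or 3 (adjusted p = 0.0691), and in a fit of the 2-week groups alone (adjusted p = 0.0639).

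Cell markers moved with these groups. All 15 macrophage and leukocyte markers were lower in iCMs than in GFP- cells at each time, 9 of 10 cardiomyocyte markers were higher, and 6 of 7 mesothelial markers were higher. Endothelial markers were lower in iCMs for 7 of 8 at 4 weeks and 6 of 8 at 2 weeks. Smooth muscle and pericyte markers were higher for 4 and 5 of 6. At 2 weeks 1 cardiomyocyte marker was called lower in iCMs and 1 endothelial marker higher. Of the 11 fibroblast markers 7 were lower and 1 higher at 4 weeks, and 3 were lower and 3 higher at 2 weeks. Their part in the differences of the members was not tested.

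**Figure D2:**
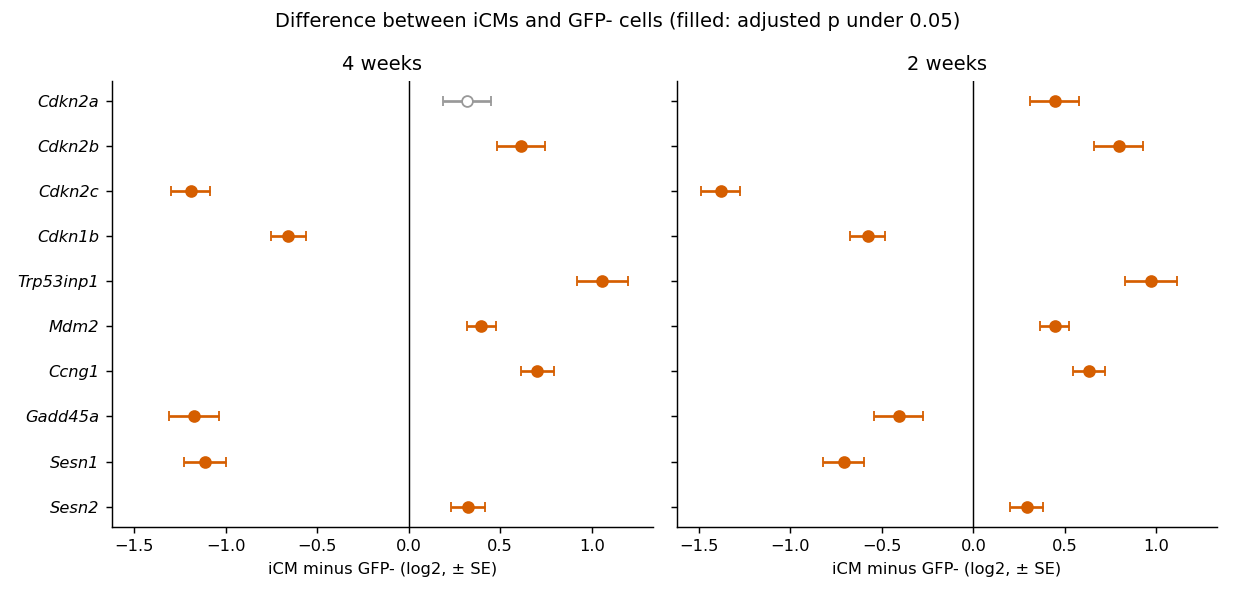
Difference in log2 intensity between iCMs and GFP- cells (horizontal axis; points are the fitted differences and bars ± SE) for each of the 10 genes at 4 weeks (left) and 2 weeks (right); filled points passed an adjusted p of 0.05. Cdkn2c, Cdkn1b, Gadd45a and Sesn1 lie below 0 in both panels, and Cdkn2a at 4 weeks did not pass.

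The iCMs were next compared with the neonatal cells CF and CM. The sample titles give no time in culture for CF or CM. The parts of cell state, the reprogramming procedure and 2 or 4 weeks of culture in these differences thus cannot be told apart. Against CF, 4 genes were higher and 4 lower in 4-week iCMs (background 14.3% and 15.2% of all genes), and 6 were higher and 3 lower in 2-week iCMs (17.4% and 15.8%). Against CM, 6 were higher and 3 lower in 4-week iCMs (background 19% and 16.1%), and 7 were higher and 3 lower in 2-week iCMs (22.7% and 19.4%).

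Trp53inp1 was 2.02-fold higher in 4-week iCMs than in CF (difference 1.01 ± 0.14 log2; adjusted p = 7.969e-06) and 5.41-fold higher than in CM (2.44 ± 0.14 log2; adjusted p = 3.008e-11). In 2-week iCMs it was 1.40-fold above CF (adjusted p = 0.0107) and 3.75-fold above CM (adjusted p = 7.941e-10). Mdm2 exceeded CF by 1.41-fold in 4-week iCMs (adjusted p = 4.762e-05) and 1.66-fold in 2-week iCMs (adjusted p = 3.944e-07). Over CM it was 2.75-fold higher in 4-week iCMs (adjusted p = 1.41e-11) and 3.22-fold in 2-week iCMs (adjusted p = 1.159e-12). These 2 genes, an inducer of arrest and the brake on p53, were therefore above both neonatal cell types at each time.

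Ccng1 lay above CF by 0.51 ± 0.09 (log2 difference; adjusted p = 0.000116) in 4-week iCMs and by 0.56 ± 0.09 (adjusted p = 3.79e-05) in 2-week iCMs, and above CM by 0.64 ± 0.09 (adjusted p = 6.766e-06) and 0.69 ± 0.09 (adjusted p = 1.899e-06) at those times. Sesn2 was 1.79-fold higher in 4-week iCMs than in CM (adjusted p = 3.354e-07) and 2.21-fold higher in 2-week iCMs (adjusted p = 3.015e-09). Over CF it was 1.23-fold higher in 4-week iCMs (0.29 ± 0.09 log2; adjusted p = 0.0204) and 1.51-fold higher in 2-week iCMs (adjusted p = 3.104e-05). The 4-week difference of Sesn2 from CF was lost without 4-week iCM replicate 1 (adjusted p = 0.0704) or CF replicate 3 (adjusted p = 0.138).

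Cdkn2c was 2.84-fold lower in 4-week iCMs than in CF (difference -1.51 ± 0.11 log2; adjusted p = 6.15e-10) and 2.74-fold lower than in CM (-1.45 ± 0.11 log2; adjusted p = 9.226e-10). In 2-week iCMs it was 1.82-fold below CF (adjusted p = 1.883e-06) and 1.75-fold below CM (adjusted p = 2.729e-06). Cdkn1b was 1.52-fold lower in 4-week iCMs than in CF (adjusted p = 5.078e-05) and 1.58-fold lower than in CM (adjusted p = 1.294e-05). It was 1.75-fold below CF (adjusted p = 1.285e-06) and 1.83-fold below CM (adjusted p = 2.917e-07) in 2-week iCMs. Sesn1 was 1.61-fold lower in 4-week iCMs than in CF (adjusted p = 6.532e-05) and 1.36-fold lower than in CM (adjusted p = 0.00346), and 1.78-fold and 1.51-fold lower in 2-week iCMs (adjusted p = 5.958e-06 and 0.000185).

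The INK4 genes Cdkn2a and Cdkn2b were above CM at both times, and their comparisons with CF share the CF arrays. Cdkn2b in 2-week iCMs was 1.502-fold above CF (0.59 ± 0.13 log2; adjusted p = 0.00163), and in 4-week iCMs the difference was 0.15 ± 0.13 (log2; adjusted p = 0.489). Over CM it was 2.17-fold higher in 4-week iCMs (adjusted p = 9.817e-07) and 2.94-fold in 2-week iCMs (adjusted p = 7.113e-09). Cdkn2a was 1.56-fold above CF in 2-week iCMs (0.64 ± 0.13 log2; adjusted p = 0.000754), against a difference of 0.25 ± 0.13 in 4-week iCMs (log2; adjusted p = 0.193), which passed with array weights (0.37 log2; adjusted p = 0.00677). Over CM it was 1.54-fold higher in 4-week iCMs (adjusted p = 0.000879) and 2.02-fold in 2-week iCMs (adjusted p = 2.809e-06). Gadd45a was 1.497-fold lower in 4-week iCMs than in CF (adjusted p = 0.00204), and the 4-week iCMs differed from CM by 0.05 ± 0.13 (log2; adjusted p = 0.832). In 2-week iCMs it differed from CF by -0.23 ± 0.13 (log2; adjusted p = 0.21) and was 1.32-fold above CM (adjusted p = 0.0216), a call lost without CM replicate 3 (adjusted p = 0.093), or 2-week iCM replicate 1 (adjusted p = 0.0534) or 3 (adjusted p = 0.0515).

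Counted together, 4 genes (Trp53inp1, Mdm2, Ccng1 and Sesn2) were higher in 4-week iCMs than in both CM and CF, against 6.14% of all genes, and 3 (Cdkn2c, Cdkn1b and Sesn1) were lower than in both, against 4.32%. In 2-week iCMs 6 genes (the same 4 with Cdkn2a and Cdkn2b) were higher than in both, against 9.51% of all genes, and the same 3 were lower, against 5.85%. The comparisons with CM and with CF share the iCM arrays. Macrophage and leukocyte markers were lower in iCMs than in CF and higher than in CM, 15 of 15 each at both times, and mesothelial markers were higher than in either, 5 to 6 of 7. The part of these cells was not tested.

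**Figure D3:**
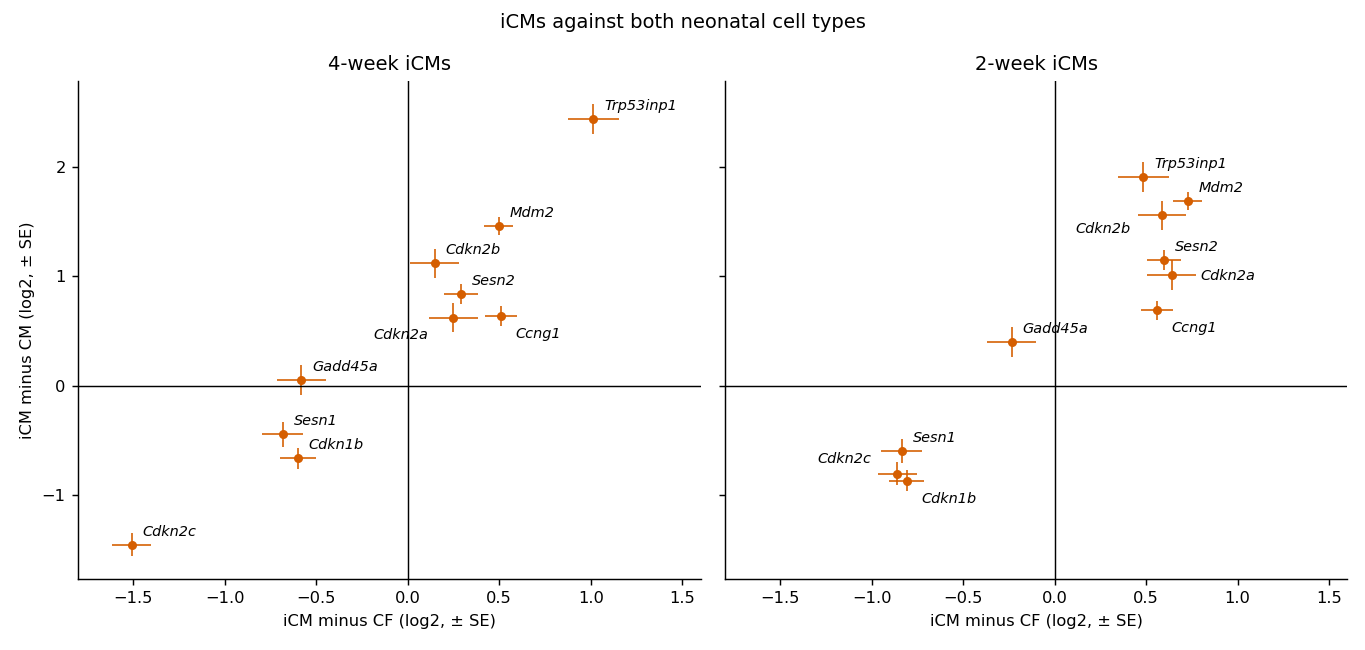
Difference of iCMs from CF (horizontal axis) against their difference from CM (vertical axis), both in log2 ± SE, for 4-week iCMs (left) and 2-week iCMs (right); the axes share the iCM arrays. Genes at the upper right had higher levels in iCMs than in either neonatal cell type, and Cdkn2c, Cdkn1b and Sesn1 at the lower left had lower ones.

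The neonatal cell types themselves differed in 6 of the 10 genes, all lower in CM than in CF (background 21.5% lower), and 0 were higher (background 19.6%). Limma's count of higher members at an unadjusted p under 0.05 was also 0. Trp53inp1 was 2.68-fold lower in CM (-1.42 ± 0.14 log2; adjusted p = 4.717e-08), Cdkn2b 1.96-fold lower (-0.97 ± 0.13 log2; adjusted p = 4.463e-06) and Mdm2 1.95-fold lower (-0.96 ± 0.08 log2; adjusted p = 3.423e-09). Gadd45a was 1.55-fold lower (adjusted p = 0.000635) and Sesn2 1.46-fold lower (adjusted p = 5.667e-05). Cdkn2a was 1.29-fold lower (-0.37 ± 0.13 log2; adjusted p = 0.031), a call that did not hold without CM replicate 2 (adjusted p = 0.0587) or 3 (adjusted p = 0.0996) or CF replicate 1 (adjusted p = 0.101) or 3 (adjusted p = 0.0978), nor with array weights (adjusted p = 0.0636). The differences of Cdkn2c, Cdkn1b, Ccng1 and Sesn1 were -0.06 ± 0.11, 0.06 ± 0.10, -0.13 ± 0.09 and -0.24 ± 0.11 (log2) and did not pass, although Cdkn1b passed when its 2 probe sets were averaged (0.30 log2; adjusted p = 0.0129). Ccng1 passed with quantile normalization (adjusted p = 0.0475) and Sesn1 without CF replicate 1 (adjusted p = 0.0379). All 15 macrophage and leukocyte and 8 of 11 fibroblast markers were lower in CM than in CF. All 10 cardiomyocyte, 7 of 8 endothelial and 4 of 6 smooth muscle and pericyte markers were higher. Called the other way were 1 fibroblast marker, higher in CM, and 1 endothelial and 2 smooth muscle and pericyte markers, lower in CM. Their part was not tested.

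Time in culture was examined within each sorted fraction. In 4-week against 2-week iCMs 1 member was higher and 3 lower (background 4.29% and 7.24% of all genes). Cdkn2c fell by a further 0.65 ± 0.11 (log2; adjusted p = 0.000618), the only one of the 4 calls that held when any 1 array was left out. Trp53inp1 was 0.53 ± 0.14 higher (log2 difference; adjusted p = 0.0187), Cdkn2b lower (difference -0.44 ± 0.13 log2; adjusted p = 0.0382) and Sesn2 lower (difference -0.31 ± 0.09 log2; adjusted p = 0.0373). The calls of Cdkn2b and Sesn2 were lost on leaving out any 1 of the 6 arrays, with adjusted p between 0.0562 and 0.152 for Cdkn2b and between 0.0562 and 0.132 for Sesn2. That of Trp53inp1 was lost without 2-week iCM replicate 2 (adjusted p = 0.0631) or 3 (adjusted p = 0.0506), or 4-week iCM replicate 2 (adjusted p = 0.0744) or 3 (adjusted p = 0.0572). Members that did not pass here passed under other settings. Mdm2, lower at 4 weeks, passed with cyclic loess, array weights, an intensity trend or without the dimmest 25% of genes (adjusted p between 0.00345 and 0.046). Cdkn2a passed without those dimmest genes (adjusted p = 0.0492) or without 2-week iCM replicate 3 (difference -0.53 log2; adjusted p = 0.0227), Gadd45a with array weights (adjusted p = 0.0225), and Cdkn1b with quantile normalization (adjusted p = 0.0429) or its probe sets averaged (adjusted p = 0.0396). Lower in 4-week than in 2-week iCMs were 8 of 11 fibroblast, 9 of 15 macrophage and leukocyte markers and 14 of 24 proliferation genes. Higher were 5 of 10 cardiomyocyte markers and 1 fibroblast marker. The part of these genes was not tested.

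In 4-week against 2-week GFP- cells 4 members were higher and 2 lower (background 7.16% and 10.2%). Cdkn2c was 1.79-fold lower at 4 weeks (-0.84 ± 0.11 log2; adjusted p = 1.85e-05) and Sesn1 1.47-fold higher (0.56 ± 0.11 log2; adjusted p = 0.00177). Those were the only calls that also held in a fit of the GFP- groups alone. Cdkn1b (0.29 ± 0.10 log2; adjusted p = 0.0462), Trp53inp1 (0.44 ± 0.14; 0.0352), Gadd45a (0.42 ± 0.13; 0.0374) and Sesn2 (-0.34 ± 0.09; 0.0155) passed in the fit of all groups. In the fit of the GFP- groups alone their adjusted p were 0.114, 0.101, 0.13 and 0.0619. Leaving out single arrays called between 2 and 5 members. Cdkn1b was lost without 4-week GFP- replicate 1 (adjusted p = 0.103), 2 (adjusted p = 0.155) or 3 (adjusted p = 0.0542), or 2-week GFP- replicate 1 (adjusted p = 0.0655) or 3 (adjusted p = 0.252). Trp53inp1 was lost without 4-week GFP- replicate 1 (adjusted p = 0.138) or 2 (adjusted p = 0.121), or 2-week GFP- replicate 1 (adjusted p = 0.181) or 3 (adjusted p = 0.136). Gadd45a was lost without the same 4 arrays, with adjusted p of 0.175, 0.153, 0.173 and 0.132. Sesn2 was lost without 4-week GFP- replicate 1 (adjusted p = 0.0505) or 2 (adjusted p = 0.0536), or 2-week GFP- replicate 2 (adjusted p = 0.0745).

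The change of iCMs from 2 to 4 weeks was then set against that of GFP- cells. In limma only Gadd45a passed (0 members higher and 1 lower, background 1.86% and 2.08%, and 0 higher also at an unadjusted p under 0.05), with 4-week minus 2-week differences of -0.35 (log2) in iCMs and 0.42 in GFP- cells, and an interaction of -0.77 ± 0.19 (log2; adjusted p = 0.0257). The call was lost in a fit of the 4 reprogrammed groups alone (adjusted p = 0.0644) and without 4-week iCM replicate 1 (adjusted p = 0.0799), 2-week iCM replicate 3 (adjusted p = 0.0576), 4-week GFP- replicate 1 (adjusted p = 0.0856) or 2 (adjusted p = 0.0806), or 2-week GFP- replicate 1 (adjusted p = 0.0838) or 3 (adjusted p = 0.0699). For Sesn1 the interaction was -0.40 ± 0.16 (log2; adjusted p = 0.197), and it passed with array weights (-0.52 log2; adjusted p = 0.00523). Of the 8 endothelial markers 6 were higher in 4-week than in 2-week GFP- cells, and their part in the Gadd45a and Sesn1 values was not tested.

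Cells in which reprogramming failed were also compared with CF, for which no time in culture is given. In 4-week GFP- cells 2 members were higher than in CF and 1 lower (background 5.79% and 5.7%), and in 2-week GFP- cells 3 were higher and 1 lower (background 13.8% and 8.93%). Gadd45a was 1.51-fold higher in 4-week GFP- cells (0.59 ± 0.13 log2; adjusted p = 0.00511). Sesn1 was 1.35-fold higher (0.43 ± 0.11 log2; adjusted p = 0.0145), lost without 4-week GFP- replicate 1 (adjusted p = 0.0686) or CF replicate 1 (adjusted p = 0.107) or 2 (adjusted p = 0.0542). Cdkn2b was 1.38-fold lower (-0.47 ± 0.13 log2; adjusted p = 0.0261), lost without 4-week GFP- replicate 3 (adjusted p = 0.147) or CF replicate 1 (adjusted p = 0.177) or 2 (adjusted p = 0.0753), and in a fit of these groups alone (adjusted p = 0.077).

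At 2 weeks Cdkn2c was 1.44-fold higher in GFP- cells than in CF (0.52 ± 0.11 log2; adjusted p = 0.00123). Mdm2 was 1.22-fold higher (0.28 ± 0.08 log2; adjusted p = 0.0137), lost without 2-week GFP- replicate 2 (adjusted p = 0.0675) or CF replicate 3 (adjusted p = 0.0583). Sesn2 was 1.24-fold higher (0.31 ± 0.09 log2; adjusted p = 0.0199), lost without the same arrays (adjusted p = 0.11 and 0.123), with array weights (adjusted p = 0.0635) and in a fit of these groups alone (adjusted p = 0.0853). Trp53inp1 was 1.40-fold lower (-0.49 ± 0.14 log2; adjusted p = 0.016), lost without 2-week GFP- replicate 1 (adjusted p = 0.103) or 3 (adjusted p = 0.0721) or CF replicate 2 (adjusted p = 0.0556). The remaining members did not pass at either time in the fit of all arrays. Under other settings Cdkn1b was lower in 2-week GFP- cells than in CF with quantile normalization (adjusted p = 0.0171), cyclic loess (adjusted p = 0.0216), array weights (adjusted p = 0.0324) or without 2-week GFP- replicate 2 (adjusted p = 0.0476), and Cdkn2b with array weights (adjusted p = 0.0403). In 4-week GFP- cells Cdkn2c was lower than in CF with array weights (adjusted p = 0.00732), without the dimmest 25% of genes (adjusted p = 0.045) or without CF replicate 1 (adjusted p = 0.0285), and Ccng1 with array weights (adjusted p = 0.0416). All 11 fibroblast markers were lower in 2-week GFP- cells than in CF, and 9 of 11 at 4 weeks, when 1 was higher. Endothelial markers were higher in GFP- cells for 7 of 8 at 4 weeks and 6 of 8 at 2 weeks. Cardiomyocyte markers were higher for 5 and 6 of 10, and 1 was lower at 4 weeks. The part of these markers was not tested.

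Other p53 targets were read from a list of 30, of which 28 were measured; Bax and Gdf15 were not analysed here. In 4-week iCMs 15 of the 28 were higher than in GFP- cells and 5 lower, and in 2-week iCMs 17 were higher and 6 lower, with medians of 0.28 and 0.37 (log2 difference). Of all genes 17.2% were higher and 17.1% lower at 4 weeks, and 16.2% and 18.4% at 2 weeks. Eda2r, a receptor of the tumour necrosis factor family, was 1.85 ± 0.18 (log2) higher at 4 weeks (adjusted p = 5.901e-08) and 2.04 ± 0.18 at 2 weeks (adjusted p = 1.387e-08). Perp, a membrane protein of p53-dependent cell death, was 1.85 ± 0.13 (log2) higher at 4 weeks (adjusted p = 5.787e-10) and 2.01 ± 0.13 at 2 weeks (adjusted p = 2.036e-10). The death receptor gene Tnfrsf10b was 1.20 ± 0.14 (log2) higher at 4 weeks (adjusted p = 6.183e-07) and 1.56 ± 0.14 at 2 weeks (adjusted p = 1.493e-08), and Ak1, an adenylate kinase also abundant in muscle, 1.08 ± 0.16 and 1.38 ± 0.16 higher.

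Against CF, 14 of these 28 targets were higher and 4 lower in 4-week iCMs (background 14.3% and 15.2% of all genes). In 2-week iCMs 21 were higher and 4 lower (17.4% and 15.8%). The death receptor Fas was among them, 1.06 ± 0.13 (log2) above CF in 4-week iCMs (adjusted p = 2.174e-06) and 1.39 ± 0.13 above it in 2-week iCMs (adjusted p = 6.055e-08). Against CM, 19 were higher and 3 lower in 4-week iCMs (background 19% and 16.1%). In 2-week iCMs 21 were higher and 3 lower (22.7% and 19.4%). Higher than in both CM and CF were 10 of the 28 in 4-week iCMs and 18 in 2-week iCMs, against 6.14% and 9.51% of all genes. Lower than in both were 0 and 1 of them, against 4.32% and 5.85%. CM against CF showed 3 higher and 17 lower (background 19.6% and 21.5%). The largest difference was that of Perp, 3.25 ± 0.13 (log2) higher in CM. Its mean log2 intensity was 10.10 in CM, above 9.18 in 4-week iCMs and 9.39 in 2-week iCMs, and 6.85 in CF. From 2 to 4 weeks 1 of the 28 was higher and 7 lower at 4 weeks in iCMs (background 4.29% and 7.24%). In GFP- cells 4 were higher and 7 lower (background 7.16% and 10.2%). The interaction passed for 0 of the 28 (background 1.86% positive and 2.08% negative). Zmat3, an RNA-binding protein, was lower at 4 weeks in iCMs (-0.62 ± 0.12 log2, adjusted p = 0.00179) and in GFP- cells (-0.50 ± 0.12 log2, adjusted p = 0.00556).

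The members' paralogs, all 6 measured, were read next. In iCMs 3 were higher and 1 lower than in GFP- cells at each time. Over all genes 17.2% were higher and 17.1% lower at 4 weeks, and 16.2% and 18.4% at 2 weeks. The count of 1 lower among 6 was thus near that share. Sesn3, the third sestrin, was 1.45 ± 0.15 (log2) higher at 4 weeks (adjusted p = 1.944e-07) and 1.63 ± 0.15 at 2 weeks (adjusted p = 3.581e-08). Gadd45g was 1.09 ± 0.14 (log2) higher at 4 weeks (adjusted p = 3.647e-06) and 1.34 ± 0.14 at 2 weeks (adjusted p = 2.189e-07), whereas Gadd45a was lower in these comparisons. Trp53inp2, which acts in autophagy, was 0.65 ± 0.09 and 0.60 ± 0.09 (log2) higher. Ccng2, encoding cyclin G2, was lower in iCMs, with differences of -0.50 ± 0.14 (log2; adjusted p = 0.00682) at 4 weeks and -0.46 ± 0.14 (adjusted p = 0.012) at 2 weeks, whereas Ccng1 was higher.

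In a list of p53, its relatives and its regulators, 8 of 9 genes were measured, and Trp53 itself was not analysed here. In iCMs against GFP- cells 2 were higher and 3 lower at each time. Beside them 17.2% of all genes were higher and 17.1% lower at 4 weeks, and 16.2% and 18.4% at 2 weeks. Hipk2, a kinase that phosphorylates p53, was 1.18 ± 0.09 (log2) higher at 4 weeks (adjusted p = 7.147e-10) and 1.23 ± 0.09 at 2 weeks (adjusted p = 4.55e-10). Trp63, a p53 relative of epithelial cells, was 0.92 ± 0.10 and 0.61 ± 0.10 (log2) higher. The checkpoint kinases Chek2 and Chek1, which relay DNA damage and replication stress, were lower in iCMs, with differences of -0.87 ± 0.12 and -0.58 ± 0.16 (log2) at 4 weeks and -0.93 ± 0.12 and -1.22 ± 0.16 at 2 weeks.

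Of the other CDK inhibitors 3 of 4 were measured, and Cdkn1a was not analysed here. Cdkn3, a phosphatase that acts on CDKs and is itself expressed in dividing cells, was lower in iCMs than in GFP- cells, with differences of -0.68 ± 0.15 (log2; adjusted p = 0.00151) at 4 weeks and -1.58 ± 0.15 (adjusted p = 6.271e-08) at 2 weeks. Cdkn2d, the fourth INK4 gene, was lower at 2 weeks (-0.73 ± 0.09 log2; adjusted p = 1.853e-06). Cdkn1c, encoding p57, did not pass at either time.

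Proliferation genes, 24 of 25 measured, were lower in iCMs than in GFP- cells for 23 of 24 at 4 weeks and 24 of 24 at 2 weeks. Their medians were -1.06 and -1.8013 (log2 difference), and of all genes 17.1% and 18.4% were lower. The proliferation genes were also lower in iCMs than in CF, 24 and 22 of 24 at 4 and 2 weeks (background 15.2% and 15.8%). Against CM 24 of 24 were lower at each time (background 16.1% and 19.4%). Bub1, a kinase of the spindle checkpoint, was lower in iCMs than in GFP- cells, with differences of -2.02 ± 0.19 (log2) at 4 weeks (adjusted p = 4.186e-08) and -2.94 ± 0.19 at 2 weeks (adjusted p = 1.989e-10). Its mean in 4-week iCMs, 5.84 (log2 intensity), lay under the highest 25th percentile of any array, as that of Plk1 did, 2 of the 24 genes in all, so the size of the 4-week difference is uncertain. In GFP- cells 23 of 24 were lower at 4 than at 2 weeks (background 10.2%). Higher in 2-week GFP- cells than in CF were 20 of 24 (background 13.8%).

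The mean log2 intensity of the 24 proliferation genes ranged from 7.24 to 7.55 in 4-week iCMs, 7.88 to 7.96 in 2-week iCMs, 8.38 to 8.58 in 4-week GFP- cells, 9.51 to 9.70 in 2-week GFP- cells, 9.07 to 9.46 in CM and 8.82 to 9.14 in CF. Cdkn2c, although an inhibitor of CDK4 and CDK6, ordered the groups much as these genes did, from 4-week iCMs at the bottom to 2-week GFP- cells at the top. Cdkn1b was also low in iCMs, but its 2-week GFP- arrays, which had the highest proliferation means, did not have the highest Cdkn1b levels.

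**Figure D4:**
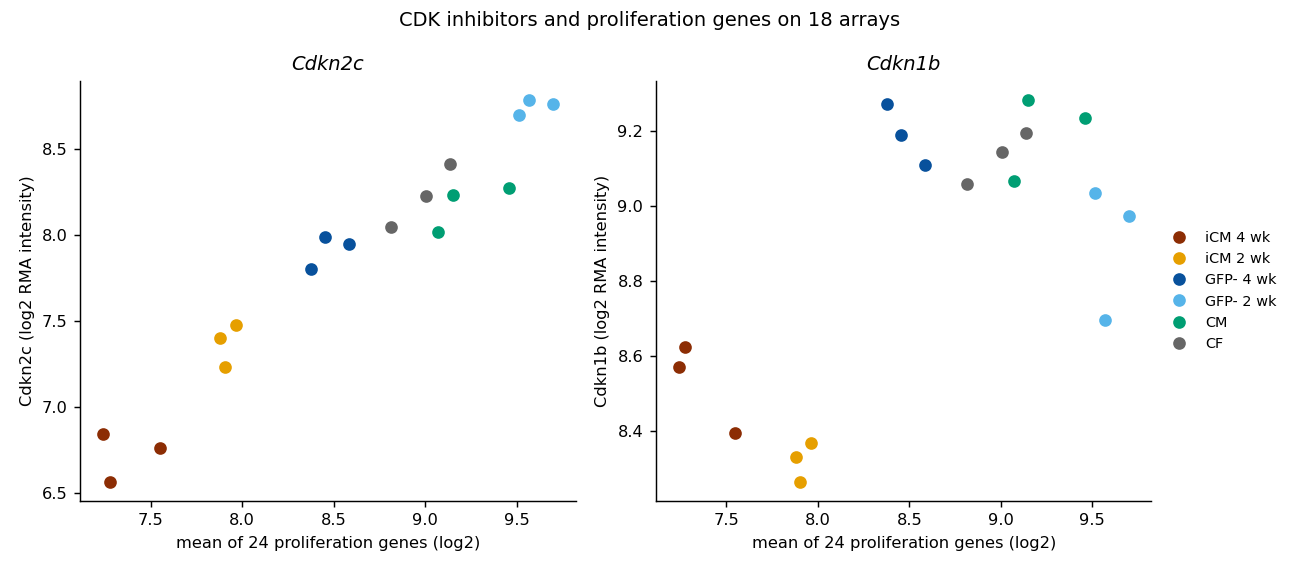
Log2 intensity of Cdkn2c (left) and Cdkn1b (right) against the mean log2 intensity of 24 proliferation genes, 1 point per array and 1 colour per group. Cdkn2c is lowest in 4-week iCMs and highest in 2-week GFP- cells, as the proliferation mean is, while Cdkn1b does not follow it among the other groups.

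Upstream and downstream of the INK4 proteins lie the D cyclins, CDK4 and CDK6, the retinoblastoma family and the E2F factors, 19 genes all measured. In iCMs against GFP- cells 5 were higher and 4 lower at 4 weeks, and 4 were higher and 10 lower at 2 weeks, beside 17.2% and 17.1% of all genes at 4 weeks and 16.2% and 18.4% at 2 weeks. Rbl1, which encodes the retinoblastoma relative p107, was lower in iCMs, with differences of -1.58 ± 0.14 (log2) at 4 weeks (adjusted p = 1.207e-08) and -1.99 ± 0.14 at 2 weeks (adjusted p = 4.55e-10). The cyclin D2 gene Ccnd2 was 0.75 ± 0.15 (log2) higher at 4 weeks (adjusted p = 0.000457) and 1.37 ± 0.15 at 2 weeks (adjusted p = 3.369e-07). Against CM, the cyclin D1 gene Ccnd1 was 1.46 ± 0.11 (log2) higher in 4-week iCMs (adjusted p = 2.159e-09) and 2.43 ± 0.11 in 2-week iCMs (adjusted p = 9.799e-13).

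**Figure D5:**
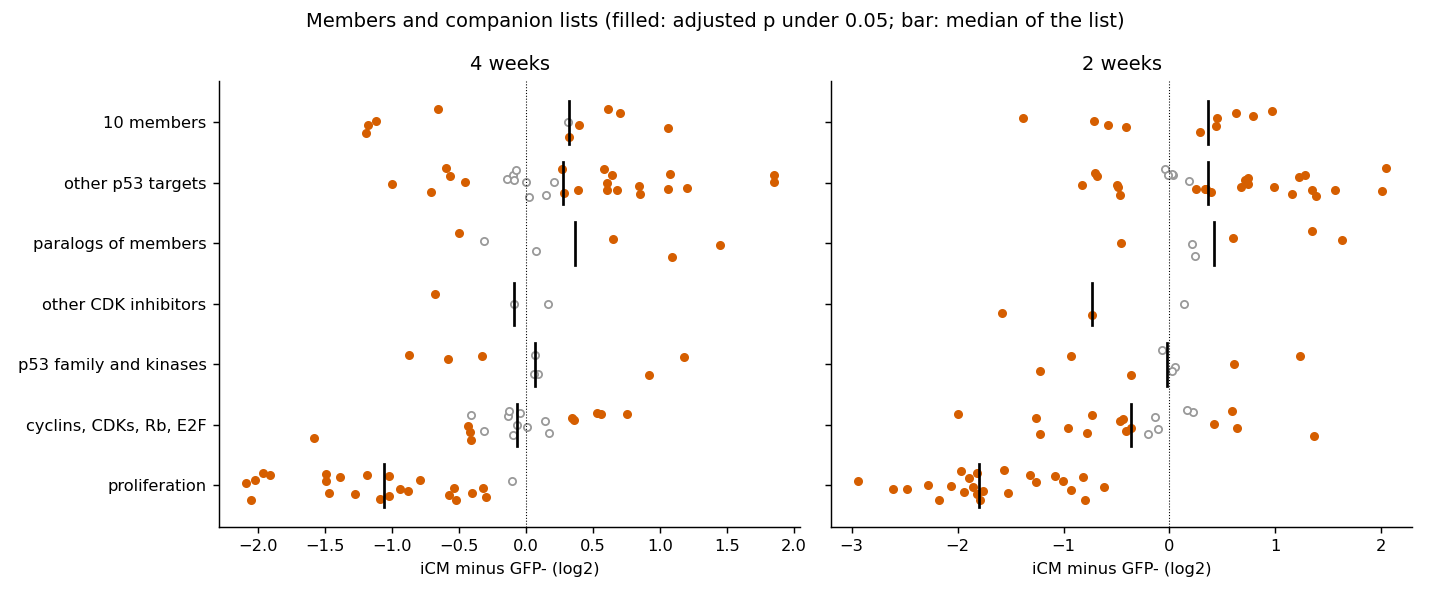
Difference in log2 intensity between iCMs and GFP- cells (horizontal axis) at 4 weeks (left) and 2 weeks (right) for every measured gene of the members and 6 further lists; points are genes, filled where the adjusted p was under 0.05, and bars are list medians. The p53 targets and their paralogs lie on both sides of 0, and the proliferation genes lie below it.

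Profiles most like those of the members were sought among 4534 genes whose group means spanned at least 1 (log2), for the 8 members that did so themselves. The measure was Pearson's r over 18 arrays, which share 6 groups and so follow the group means. For Cdkn2c they were Mcm6 (r = 0.988), Tacc3 (0.987) and Mki67 (0.986), and for Mdm2 Abcc1 (0.989), Creb3 (0.984) and Nt5c (0.982). For Trp53inp1 they were Fzd7 (0.968), Rtn1 (0.965) and Dnajc1 (0.964), and for Sesn1 Fgd4 (0.971), Phyhd1 (0.966) and Jmjd1c (0.963). Sesn2 came closest to Creb3 (0.968), Uso1 (0.966) and Chp1 (0.965), and Gadd45a to Htra2 (0.965), Plk2 (0.953) and Skil (0.946). Cdkn2b had Slc44a2 (0.964), Ero1a (0.955) and Unc5b (0.951), and Cdkn2a had E2f3 (0.919), Uso1 (0.915) and Cyb5d1 (0.912).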

How the data were processed

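Total RNA of 18 samples was extracted with PicoPure, amplified and biotin-labelled with MessageAmp II and hybridised to Affymetrix mouse Gene 1.0 ST arrays, per the labels' protocols. The authors deposited log2 intensities per probe set made with RMA, per the submitters' processing notes, whose version is not given in the sources used here. RMA corrects background, equalises the distributions of the arrays and summarises probes, so a shift of all RNA in a group cannot be seen. Of 28682 probe sets, 21755 were annotated to 1 gene, 1592 to several and 5335 to none. The single-gene probe set with the highest mean over 18 arrays was used, giving 19912 genes. All 18 columns were mapped, with 0 missing values and 0 identical columns.

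One model over all groups was fitted with limma 3.58.1 (lmFit, eBayes; R 4.3.3), with 12 residual and 6.96 prior degrees of freedom. From it 12 two-sided comparisons were drawn. P-values were adjusted by Benjamini-Hochberg over all genes within each comparison and genes called at an adjusted p under 0.05. The procedure was tested on simulated data. The members and gene lists were chosen with earlier results of these data known. All members are described. Of each other list, counts and up to 4 called members with the largest differences per comparison are eligible to be named. Alternatives were quantile or cyclic loess normalization, array weights, an intensity trend, fitting only the groups compared, leaving out the dimmest 25% of genes, averaging probe sets, the replicate number as a block, and leaving out each array. Trp53, Cdkn1a, Bax, Gdf15 and Ccnb1 had no single-gene probe set and were not analysed here.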

Additional observations from a re-analysis of the deposited data

Results flagged for a closer look

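Whether 2 further weeks of culture changed iCMs and GFP- cells unequally was tested as an interaction in limma, the 4-week minus 2-week difference of iCMs less the same difference of GFP- cells. It passed for 1 member. In the lists on the cell cycle and p53 it passed for 2 other CDK inhibitors, 3 cyclin and E2F genes and 6 proliferation genes. Of the 6, the 4 with the largest interactions are given. Over all genes it passed as positive for 1.86% and as negative for 2.08%. Of the marker lists it passed for 4 of 11 fibroblast and 3 of 15 macrophage and leukocyte markers, all negative, for 3 of 10 cardiomyocyte markers, all positive, and for 5 of 8 endothelial markers, 4 of them negative. The member Gadd45a had an interaction of -0.77 (log2; adjusted p = 0.0257), with 4-week minus 2-week differences of -0.35 in iCMs and 0.42 in GFP- cells. As given above, this call was lost in a limma fit of the 4 reprogrammed groups alone (adjusted p = 0.0644) and on leaving out some single arrays.

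The 9 other genes given here had positive interactions, and in each the GFP- cells had the larger decline to 4 weeks. Among cyclins and E2F factors the interaction was 1.16 (log2) for E2f8 (adjusted p = 0.000866), 0.74 for E2f7 (adjusted p = 0.00714) and 0.66 for Ccne1 (adjusted p = 0.0127). Among CDK inhibitors it was 0.90 (log2) for Cdkn3 (adjusted p = 0.0227) and 0.64 for Cdkn2d (adjusted p = 0.00642), whose 4-week minus 2-week differences were 0.08 in iCMs and -0.56 in GFP- cells. Among mitotic genes it was 1.19 (log2) for Bub1b (adjusted p = 0.00524), 1.01 for Aurka (adjusted p = 0.00344), 0.92 for Aurkb (adjusted p = 0.00195) and 0.83 for Plk1 (adjusted p = 0.00474). For Bub1b the 4-week minus 2-week difference was -0.44 (log2) in iCMs and -1.63 in GFP- cells. The mean of Plk1 in 4-week iCMs was 6.35 (log2 intensity), beside a highest 25th percentile of 6.35 on any array.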

How the results depend on the processing

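Over 8 other settings the 960 differences of the members kept direction and side of the threshold in 919 cases, lost the call in 12, gained it in 21 and changed sign in 8. Leaving out 1 array gave 697 of 780 kept, 69 lost, 4 gained and 10 changed in sign. No sign change involved a called difference. With quantile normalization the values that changed sign were 0.0082 (log2) for Cdkn2c in CM against CF, 0.0181 for Ccng1 in 4-week against 2-week iCMs and 0.0026 for Sesn2 in 4-week GFP- cells against CF. With cyclic loess they were -0.03 for Gadd45a in 4-week iCMs against CM and -0.0187 for the interaction of Sesn2, and with array weights -0.1089 for that of Sesn2, 0.004 for Cdkn2a and -0.0958 for Trp53inp1. Array weights raised the count of all genes called to 5985 in 4-week against 2-week iCMs (main 2297), 6087 in 4-week against 2-week GFP- cells (3465), 7398 in 2-week GFP- cells against CF (4520), 3720 in 4-week GFP- cells against CF (2286) and 4191 for the interaction (785), with 5 members called in 4-week GFP- cells against CF (3) and 2 for the interaction (1). Fitting only the groups compared called 1486 genes in 4-week against 2-week iCMs, 2 members in 4-week against 2-week GFP- cells (6) and 0 for the interaction. The cause of these shifts was not tested. No setting moved the median of all genes by 0.1 (log2). Leaving out 1 array called 1 to 2 members in 4-week against 2-week iCMs (all genes 1289 to 1958), 2 to 5 in 4-week against 2-week GFP- cells (2350 to 3677), 2 to 4 in 2-week GFP- cells against CF, 1 to 3 in 4-week GFP- cells against CF (1612 to 2045) and 0 to 1 for the interaction (514 to 1004). It changed the sign within ranges of -0.1455 to 0.037 for Cdkn2c in CM against CF, -0.0132 to 0.1407 for Gadd45a in 4-week iCMs against CM, and, in 4-week GFP- cells against CF, -0.1138 to 0.0792 for Trp53inp1 and -0.1087 to 0.0223 for Sesn2. For the interaction these ranges were -0.147 to 0.0225 for Cdkn1b, -0.0903 to 0.2017 for Trp53inp1, -0.01 to 0.128 for Ccng1 and -0.0642 to 0.1088 for Sesn2. The replicate number as a block left the member counts as they were in all 12 comparisons, such as 9 in 4-week iCMs against GFP- cells and 10 at 2 weeks. Same-numbered arrays correlated between -0.30 and 0.45, with a median of -0.0017. Of 45 pairs 15 lay over 0.1, and 11 of 18 arrays were closest to their own number. The highest value was that of replicate 1 of 2-week and 4-week iCMs. These values do not settle whether same-numbered arrays shared a culture, and the main fit did not pair them.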
